A study of Mus musculus with 14 samples.

Results

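H3K27me3 at the promoters of 8 genes of inhibitory interneurons, Gad1, Gad2, Npy, Sst, Pvalb, Slc6a5, Tfap2a and Tfap2b, was followed through postnatal maturation of the mouse cerebellum. They were taken as a named list, 8 of 21938 annotated protein-coding genes. A window of 6 kb, reaching 3 kb to either side, was laid over every transcription start site (TSS) of a gene on mm10, and promoter coverage is how much of the best covered window, in percent, lay under H3K27me3 peaks. The study mapped the mark by ChIP-seq in cerebellum of wild-type C57BL/6NCrl mice of both sexes, with 3 libraries at postnatal day 7 (P7), 3 at postnatal day 14 (P14) and 3 at postnatal day 60 (P60), and asked where the mark is redistributed as granule neurons mature. Per the study's methods, a P60 replicate was 1 mouse while the younger replicates pooled several, so pool size and age cannot be told apart.

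H3K27me3 is laid down by Polycomb repressive complex 2 and is found at silent, often CpG-rich, promoters of genes for other lineages. Inhibitory neurons of the cerebellum release GABA, glycine or both, and include the molecular layer interneurons, Golgi cells, Purkinje cells and inhibitory nuclear neurons, all born from the Ptf1a lineage. Granule neurons, which release glutamate and make up most cerebellar cells, do not use the genes described here to make their transmitter. In whole tissue, a lower value can come from fewer cells that carry the mark or from less mark per cell, and these cannot be told apart.

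The 9 peak lists held 6905 to 15600 peaks covering 1.48 to 15.2 Mb. The number of reads behind them is unknown. Median peak width was 485 to 751 bp at P7, 269, 454 and 580 bp in P14 replicates 1, 2 and 3, and 134, 149 and 410 bp in P60 replicates 1, 2 and 3. P14 replicate 1, P60 replicate 1 and P60 replicate 2 therefore stood apart by narrow peaks, and counts that rest on them are given with and without them. A coverage of 0 means that no peak was listed in any window of the gene, not that the mark was absent. Tissue identity could not be read from a repressive mark alone. Of 19 genes fixed for the glutamatergic and granule lineage, 8 were covered in fewer than 2 of the 9 libraries. These included Neurod1, Pax6, Zic1 and Gabra6. The other 11, among them Grin2c and Cbln1, were covered in 2 or more. Of all 21938 protein-coding genes, 16818 were covered in fewer than 2, so a lack of coverage was not particular to this list.

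The start sites differ in how much of their own sequence lay under peaks. RefSeq promoters of 300 bases on GRCm38.p6, from 250 before the start to its first 50 bases, were found for 8 of 8 members, in 11 entries. Those shown are the 4 that lay wholly under a peak in at least 1 P7 library, and the outer start of Pvalb for contrast, each 5′ to 3′ on the gene's strand with every CG in capitals. Npy lies at chr6:49822460-49822759 on the plus strand, Gad1 at chr2:70561879-70562178 on the plus strand, Sst at chr16:23890795-23891094 on the minus strand, the inner Pvalb start at chr15:78204188-78204487 and the outer at chr15:78206351-78206650, both on the minus strand.
Npy: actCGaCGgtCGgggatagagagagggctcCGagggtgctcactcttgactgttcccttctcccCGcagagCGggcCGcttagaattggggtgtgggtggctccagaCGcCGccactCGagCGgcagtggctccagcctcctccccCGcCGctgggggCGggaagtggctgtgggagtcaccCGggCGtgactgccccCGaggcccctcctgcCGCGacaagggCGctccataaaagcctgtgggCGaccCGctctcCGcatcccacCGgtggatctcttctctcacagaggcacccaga
Gad1: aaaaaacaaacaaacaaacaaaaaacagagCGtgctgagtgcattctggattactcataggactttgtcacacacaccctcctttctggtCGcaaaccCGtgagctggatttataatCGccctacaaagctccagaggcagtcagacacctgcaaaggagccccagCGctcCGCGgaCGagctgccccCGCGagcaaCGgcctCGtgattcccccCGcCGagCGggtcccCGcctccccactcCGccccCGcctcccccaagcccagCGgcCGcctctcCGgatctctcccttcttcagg
Sst: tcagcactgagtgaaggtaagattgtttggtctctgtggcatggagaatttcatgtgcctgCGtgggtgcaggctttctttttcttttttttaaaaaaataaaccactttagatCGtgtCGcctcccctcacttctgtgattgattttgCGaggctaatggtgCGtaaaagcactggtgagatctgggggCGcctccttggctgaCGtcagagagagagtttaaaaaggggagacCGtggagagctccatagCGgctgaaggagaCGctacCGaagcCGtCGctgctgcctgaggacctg
Pvalb inner: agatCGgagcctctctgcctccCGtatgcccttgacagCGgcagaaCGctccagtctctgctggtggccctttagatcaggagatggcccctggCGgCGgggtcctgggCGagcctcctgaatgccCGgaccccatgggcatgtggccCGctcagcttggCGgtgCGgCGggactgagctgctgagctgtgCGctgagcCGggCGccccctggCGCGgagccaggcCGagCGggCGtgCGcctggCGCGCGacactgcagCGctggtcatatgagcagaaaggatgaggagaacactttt
Pvalb outer: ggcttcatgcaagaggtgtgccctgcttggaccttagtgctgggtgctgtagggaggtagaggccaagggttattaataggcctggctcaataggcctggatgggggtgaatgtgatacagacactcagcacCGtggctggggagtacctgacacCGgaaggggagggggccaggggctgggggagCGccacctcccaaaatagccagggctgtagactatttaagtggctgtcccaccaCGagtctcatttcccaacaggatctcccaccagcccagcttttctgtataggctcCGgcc

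The Npy promoter held 24 CG dinucleotides, Gad1 21, Sst 13, and the inner and outer Pvalb promoters 25 and 5, against a median of 7 over 32851 RefSeq promoters. All 300 bases of the Npy promoter lay under a peak in every P7 and P14 library and in P60 replicate 3. For Gad1, 300, 121 and 300 bases lay under peaks at P7, 0, 121 and 165 at P14, and none at P60. For Sst the counts were 300, 300 and 145 at P7, 0, 113 and 144 at P14, and 7, 0 and 0 at P60. The promoter of Npy was therefore wholly covered at P7 and P14 alike, while those of Gad1 and Sst were wholly covered in 2 of 3 P7 libraries and at most in part at P14. The inner Pvalb promoter was fully covered in P7 replicate 1 and P14 replicate 3 and the outer one in no library. The RefSeq promoters of Slc6a5, Tfap2a and Tfap2b lay under no peak in any library, and that of Gad2, with 14 CG, had 230 bases covered in P7 replicate 1 alone. For Tfap2a and Tfap2b these entries lie at starts inside the gene. The 5′ start of Tfap2a, which has no such entry, lay under a peak in P7 replicate 1 and P14 replicates 2 and 3. The cyclic AMP response element TGACGTCA, a palindrome that reads alike on both strands, was present at base −48 from the start in Sst and in no other member, and in 1.79% of all promoters. The AP-2 motif GCCNNNGGC, also the same on both strands, was found in 2 members, Gad2 and Pvalb, and in 16.6% of all promoters. These matches describe letters in the window only.

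At P7 every member had promoter coverage in at least 2 of 3 libraries, and at P60 Gad1, Gad2, Slc6a5 and Tfap2b had none in any library. Of the 8 genes, 8, 8 and 7 were covered in P7 replicates 1, 2 and 3, 6, 8 and 8 in the P14 replicates, and 3, 0 and 2 in the P60 replicates. Of all 21938 genes, 5212, 4044 and 3506 were covered at P7, 2654, 3624 and 3834 at P14, and 1931, 1546 and 2432 at P60. Fewer covered genes at P60 were therefore not particular to the members. Below, values are percent of the window covered, in replicates 1, 2 and 3.

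**Figure D1:**
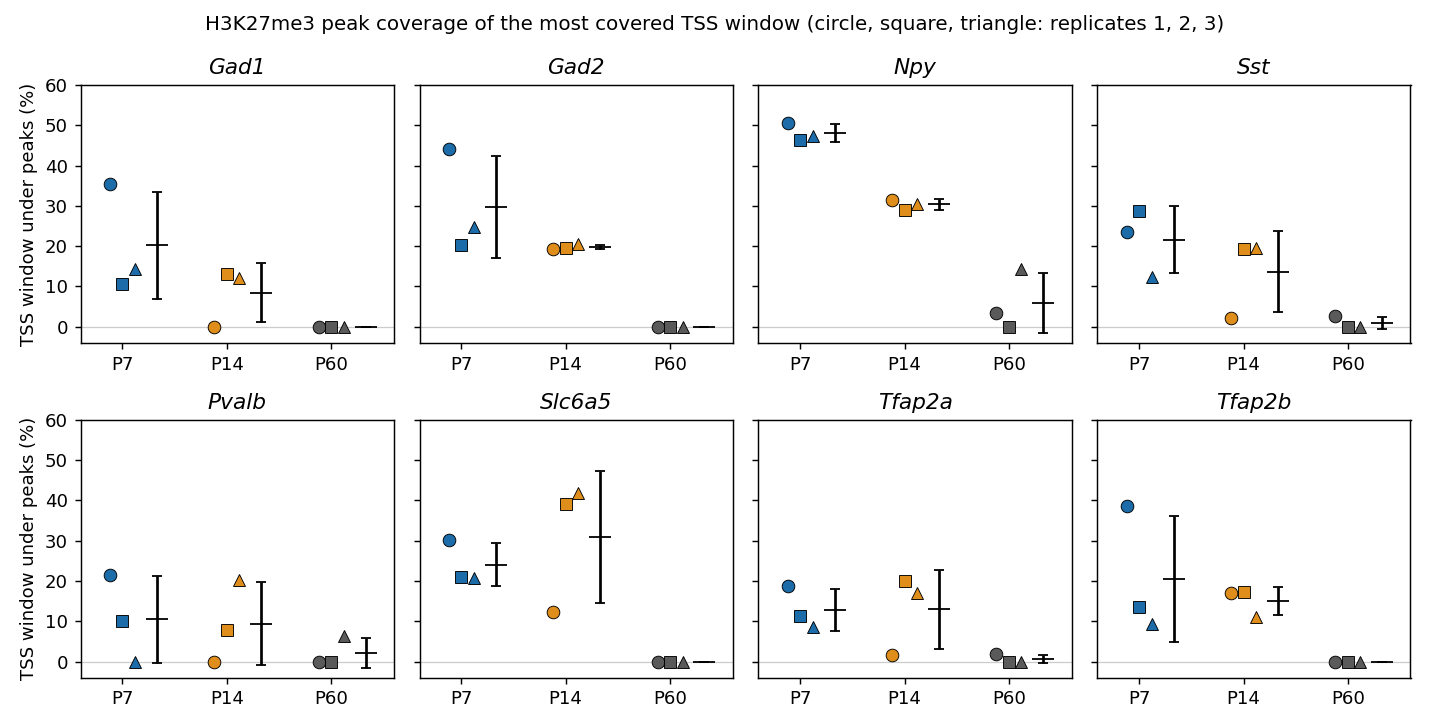
Percent of the most covered 6 kb TSS window under H3K27me3 peaks (y axis) for each member at P7, P14 and P60 (x axis), with circles, squares and triangles for replicates 1, 2 and 3, and a horizontal mark and error bar for the stage mean and SD (n = 3). Npy sits between 46.5 and 50.7% at P7, above every other member, and Gad1, Gad2, Slc6a5 and Tfap2b sit at 0 in all 3 P60 libraries.

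Gad1 and Gad2 encode the glutamate decarboxylases GAD67 and GAD65, which make GABA from glutamate. Gad2 (ENSMUSG00000026787, chromosome 2) was covered over 44.1, 20.4 and 24.6% of its window at P7, 19.4, 19.5 and 20.4% at P14 and 0 in all P60 libraries. The 3 P14 values were nearly level, the tightest stage of any covered member (19.8 ± 0.578%, SD, n = 3). From P7 to P60 its coverage fell by 29.7 percentage points (SE 5.89, limma adjusted p = 0.00265). Divided by the library mean it was −17.3 points and did not pass, and over 15 alternatives the adjusted p ranged from 0.000139 to 0.111. The peaks sat at nearly the same place in all 6 younger libraries: 1158 bp at chr2:22622924-22624081, from 719 to 1876 bp downstream of the 5′ end and overlapping coding exon and intron, was covered in at least 5 of the 6. Of the sequence covered in 2 or more P7 libraries, 78.6% was also covered in 2 or more P14 libraries, and this shared part was 98.6% of the P14 sequence.

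Gad1 (ENSMUSG00000070880, chromosome 2) has 7 annotated start sites, and where the mark lay depended on which was read. The window at its 5′ end was at 0 in all 9 libraries. The covered windows began 8970 to 13305 bp further in, around the start shown above. Coverage was 35.4, 10.7 and 14.4% at P7, 0, 13.2 and 12.1% at P14, and 0 in every P60 library. P7 replicate 1 was the highest library, and P14 replicate 1 was level with P60. From P7 to P60 coverage fell by 20.2 points (SE 6.33, adjusted p = 0.0224). With the same number of peaks taken from every list the change was −4.81 points and did not pass, and over 14 alternatives the adjusted p ranged from 0.00956 to 0.376. The sequence in common was small, with 134 bp at chr2:70562058-70562191 in a non-coding exon and 133 bp at chr2:70568289-70568421 in an intron under peaks of at least 5 of the 6 younger libraries.

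Slc6a5 encodes GlyT2, the neuronal glycine transporter that loads glycinergic terminals such as those of Golgi cells. Its coverage (ENSMUSG00000039728, chromosome 7) was 30.2, 21.1 and 20.8% at P7, 12.2, 39.0 and 41.7% at P14 and 0 at P60. Among the members it was the one with the highest P14 mean (31.0 ± 16.3%), with P14 replicates 2 and 3 above and replicate 1 below all P7 libraries, so those stages overlapped. From P7 to P60 coverage fell by 24.0 points (SE 7.19, adjusted p = 0.0184). In windows of 1 kb to either side the change was −12.5 points and did not pass, and over 15 alternatives the adjusted p ranged from 0.00029 to 0.186. The mark flanked the start rather than covering it. A block of 1177 bp at chr7:49908020-49909196, from −2126 to −950 bp of the 5′ end and outside the gene, was covered in at least 5 of the 6 younger libraries, and a second of 152 bp at chr7:49915563-49915714 lay in an intron.

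Npy encodes neuropeptide Y, and Sst encodes somatostatin, peptides co-released by subsets of GABAergic neurons. Npy (ENSMUSG00000029819, chromosome 6) was covered over 50.7, 46.5 and 47.3% of its window at P7, 31.6, 29.1 and 30.4% at P14, and 3.43, 0 and 14.2% at P60. The stages did not overlap in either step, and the spread within P7 (48.1 ± 2.23%) and P14 (30.4 ± 1.26%) was small beside the steps. From P7 to P60 coverage fell by 42.2 points (SE 5.79, adjusted p = 0.00079), and 3.07% of the 5120 genes tested had a larger fall. Divided by the library mean the change was −14.5 points and did not pass, the only one of 16 alternatives to lose the call, with adjusted p from 0.000741 to 0.349. The peak narrowed mainly at its upstream side, from 2787 to 3040 bp at P7 to 1743 to 1894 bp at P14, and 1743 bp at chr6:49822090-49823832, from 620 bp upstream to 1122 bp downstream of the start, was covered in at least 5 of the 6 younger libraries. All of the sequence covered in 2 or more P14 libraries (100%) was also covered in 2 or more at P7, against 61.3% the other way. The P60 libraries differed, with 1 peak of 854 bp over the start in replicate 3, 2 narrow peaks in replicate 1 and none in replicate 2.

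Sst (ENSMUSG00000004366, chromosome 16) was covered over 23.6, 28.8 and 12.5% of its window at P7, 2.22, 19.3 and 19.6% at P14, and 2.65, 0 and 0% at P60. P14 replicate 1 was level with P60, while P14 replicates 2 and 3 lay among the P7 values. From P7 to P60 coverage fell by 20.7 points (SE 5.87, adjusted p = 0.0142). Divided by the library mean it was −7.80 points and did not pass, and over 16 alternatives the adjusted p ranged from 0.0075 to 0.313. The part under peaks in at least 5 of the 6 younger libraries was 715 bp at chr16:23890193-23890907, which spans coding exon, with 119 bp more at chr16:23889815-23889933.

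Pvalb encodes parvalbumin, a calcium buffer of Purkinje cells and molecular layer interneurons. It (ENSMUSG00000005716, chromosome 15) had the lowest P7 coverage, with 21.5, 10 and 0% at P7, 0, 7.92 and 20.3% at P14 and 0, 0 and 6.45% at P60. Every stage held a library at 0 and the stages overlapped throughout. The change from P7 to P60 was −8.35 points (SE 6.21, adjusted p = 0.283), which did not pass, and it was 2.15 points upward when the same number of peaks was taken from every list. Peaks lay at the inner start, 2163 bp downstream of the 5′ end, or in the intron just inside it.

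Tfap2a and Tfap2b encode AP-2α and AP-2β, transcription factors of the GABAergic interneuron lineage of the early cerebellum. Tfap2b (ENSMUSG00000025927, chromosome 1) was covered over 38.5, 13.5 and 9.4% at P7, 17.03, 17.2 and 11.02% at P14 and 0 in all P60 libraries. P7 replicate 1 stood above the other P7 libraries, which overlapped P14. Coverage fell by 20.5 points from P7 to P60 (SE 6.71, adjusted p = 0.0272). The call was lost in 8 of 16 alternatives, with changes of −7.81 points for the same number of peaks per list, −1.55 at a −log10 q of at least 4 and −11.1 after division by the library mean, and adjusted p from 0.000622 to 0.647. In the TSS windows the peaks lay inside the gene, with 279 bp at chr1:19214048-19214326, over coding exon, under peaks of 5 of the 6 younger libraries.

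Tfap2a (ENSMUSG00000021359, chromosome 13) was covered over 18.6, 11.3 and 8.45% at P7, 1.65, 20.1 and 17% at P14 and 1.9, 0 and 0% at P60. P14 replicate 1 lay within the P60 range and P14 replicate 2 was the highest of all, so P7 and P14 overlapped. The P7 to P60 change was −12.2 points (SE 5.19, adjusted p = 0.0731), which did not pass although no P60 library reached the lowest P7 library. The gene has 9 annotated starts, and its windows differed. At the 3 starts from 4401 to 4598 bp inside the gene, coverage was 0 at P7 and 13.97 and 8.6% in P14 replicates 2 and 3. In contrast, 444 bp at chr13:40728269-40728712, over a coding exon 9664 to 10107 bp inside the gene, was covered in at least 5 of the 6 younger libraries, with 99 bp under a peak in P14 replicate 1 and 114 bp in P60 replicate 1.

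**Figure D2:**
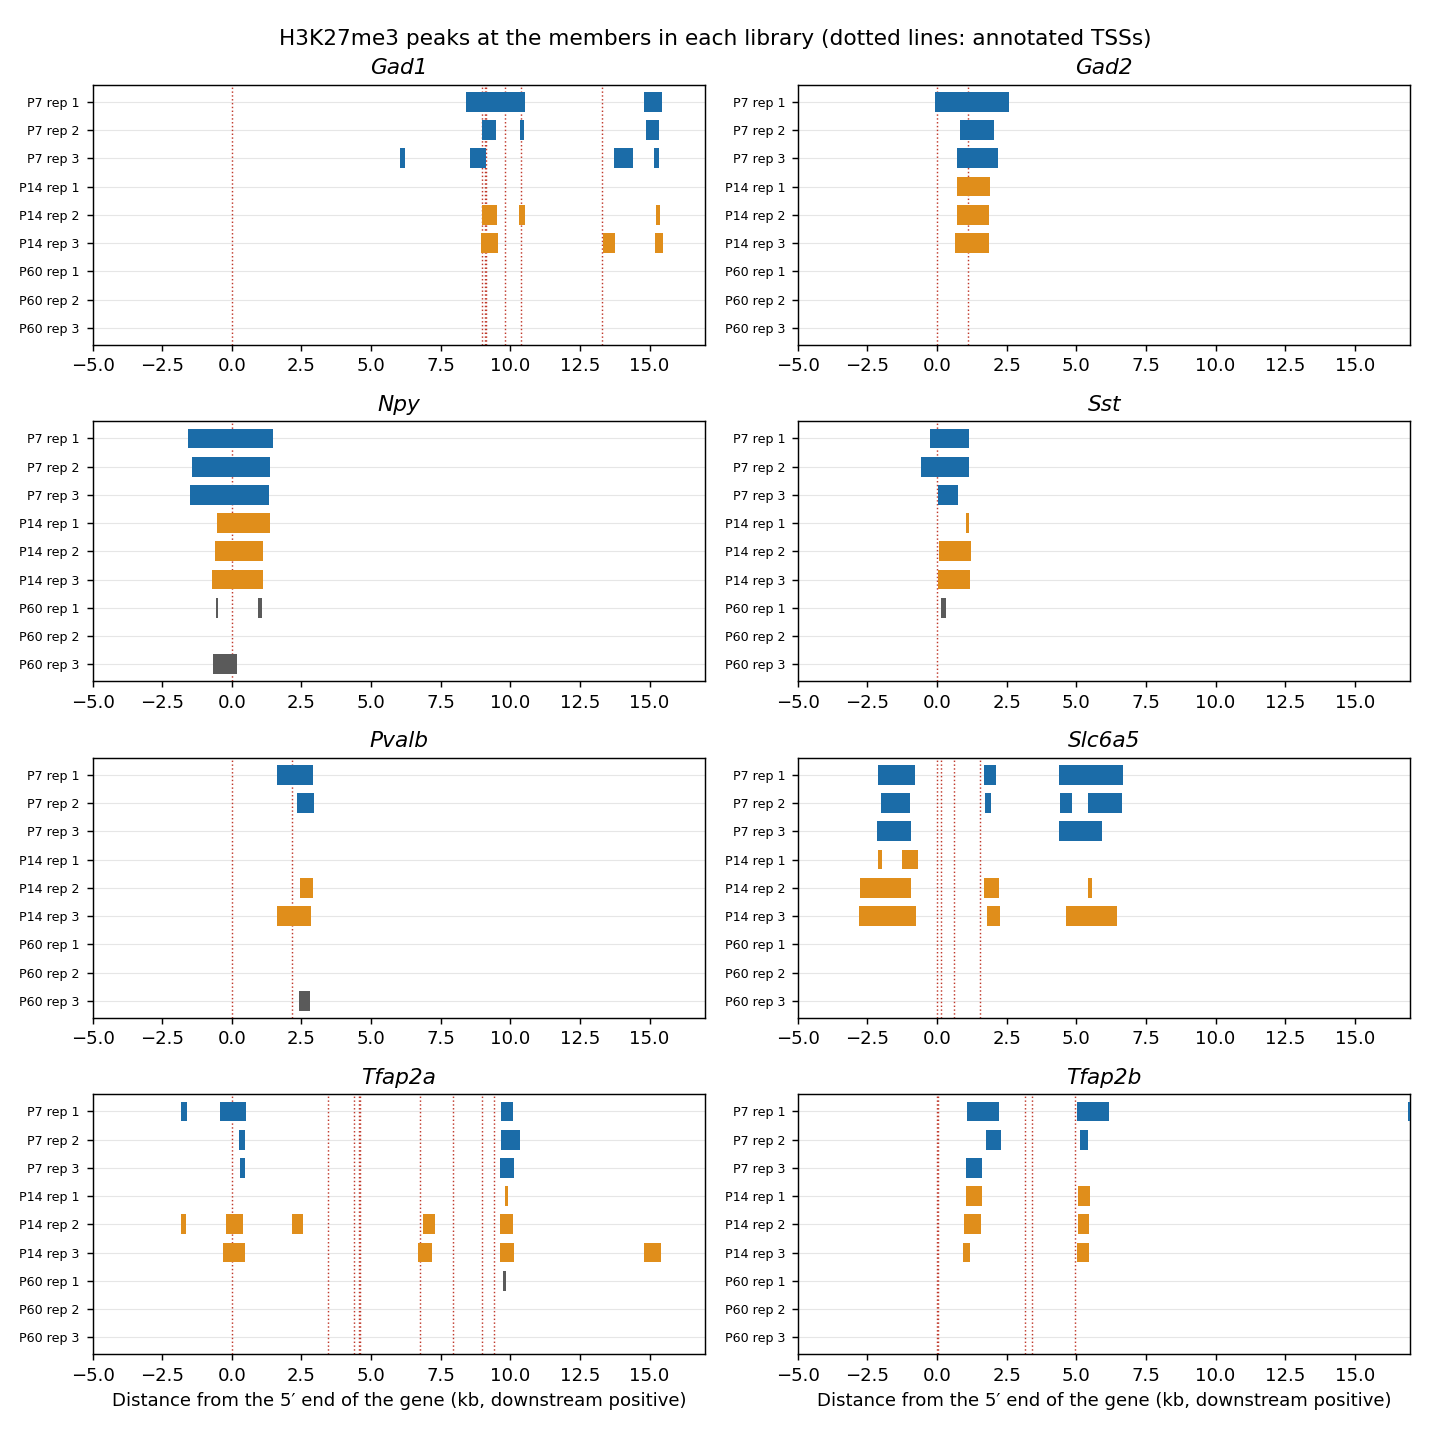
Position of H3K27me3 peaks from 5 kb upstream to 17 kb downstream of the 5′ end of each member (x axis, kb, downstream positive) in each of the 9 libraries (rows), with bars from peak start to peak end coloured by stage and dotted lines at annotated TSSs. Peaks were taken from the gene and 10 kb to either side. At Sst and Npy this ends short of 17 kb, so a blank beyond it is not a lack of peaks. Peaks recur at the same places in P7 and P14 libraries, as in the 1158 bp of Gad2, Gad1 peaks cluster 8970 bp and more inside the gene, and 4 members have no P60 peak.

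Between P7 and P60, 6 of the 8 members fell and none rose: Npy, Gad2, Slc6a5, Sst, Tfap2b and Gad1. Over all 5120 genes covered in 2 or more libraries, 45.8% fell and 0.605% rose, so falling was common among all marked genes. That filter favours falls, for members and other genes alike, since more genes were covered at P7 than at P60. Gad1, Gad2, Slc6a5 and Tfap2b passed it through P7 and P14 libraries alone, so their changes to P60 could only be negative. The median change was −20.6 points for the members and −12.0 for all genes tested. In 7 members, all but Pvalb, every P7 library lay above every P60 library, against 52.1% of genes tested. The count of 6 became 3 (Gad2, Npy and Sst) without P60 replicate 1 and likewise without P60 replicate 2, where 32.2 and 31.4% of all genes tested fell. It became 1 (Npy) without the 3 libraries of narrow peaks, where 8.08% of all genes did. When each library's values were divided by its mean coverage, 2 members fell (Gad1 and Slc6a5) beside 21.7% of all genes, the calls over all genes changed from 2347 lower and 31 higher to 1111 lower and 280 higher, and the median of all genes moved from −12.0 to −2.54 points against −11.2 for the members.

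Between P7 and P14 no member passed the test in limma, and 1 (Npy) did at an unadjusted p under 0.05, as did 30.6% of all genes tested. Its change was −17.8 points (SE 5.79, adjusted p = 0.0693). Slc6a5 and Tfap2a had changes of 6.94 (SE 7.19) and 0.111 (SE 5.19) points, and the other 6 had negative ones. Over all genes 11.7% were lower and 0.352% higher. The median change was −6.66 points for the members and −5.73 for all genes tested, while after division by the library mean the medians were 4.46 and 0, so the members' direction between these stages turned with the scaling. Every P7 library lay above every P14 library in 1 member, Npy, and in 27.2% of genes tested.

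Between P14 and P60 all 8 changes were negative, and again none passed in limma, while 5 did at an unadjusted p under 0.05, as did 25.5% of all genes tested. Slc6a5 changed by −31.0 points (SE 7.19, adjusted p = 0.0502), and 1.66% of genes tested had a larger fall. Npy changed by −24.5 points (SE 5.79, adjusted p = 0.0504) and Gad2 by −19.8 (SE 5.89, adjusted p = 0.0787). Over all genes 2.07% were lower and 0% (0 genes) higher at the threshold, and 1306 genes had an unadjusted p under 0.05. The median change was −13.9 points for the members and −4.86 for all genes tested. In Gad2, Npy, Slc6a5 and Tfap2b, 4 members, every P14 library lay above every P60 library, against 25.7% of genes tested. Without P14 replicate 1, 4 members (Npy, Sst, Slc6a5 and Tfap2a) and 21.9% of all genes tested fell, and without P60 replicate 3, 1 member (Npy) and 3.97% of genes did. Division by the library mean gave 439 genes lower and 100 higher, where the unscaled values gave 106 and 0.

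**Figure D3:**
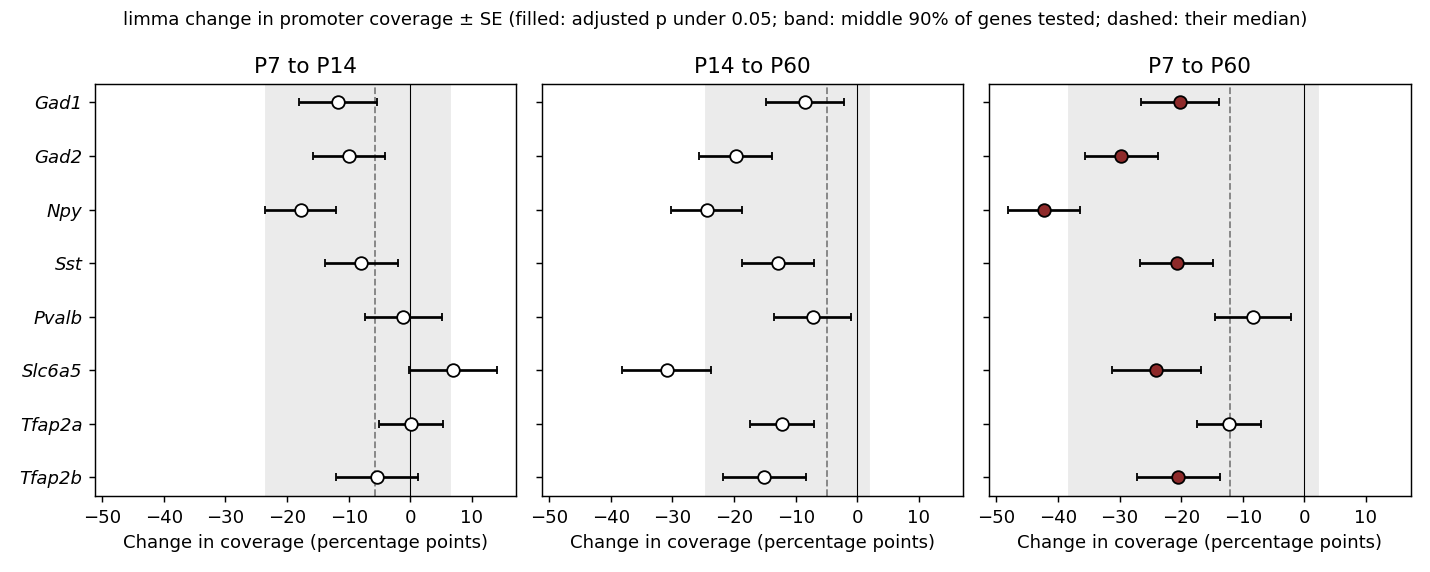
Change in promoter coverage in percentage points (x axis, later minus earlier stage) for each member from limma, with error bars for the SE, in the 3 comparisons; filled points have an adjusted p under 0.05, the grey band spans the 5th to 95th percentile of the 5120 genes tested and the dashed line is their median. Filled points, 6 in number, appear in P7 to P60, and Npy at −42.2 points lies outside the band.

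In all 8 members, bases under peaks of 2 or more P7 and P14 libraries were richer in CpG than bases under no P7 or P14 peak. Bases of the window covered in some but fewer than 2 of these libraries were left out. CpG density was not used to choose the genes or the peaks. Within the most covered window, bases under peaks of 2 or more P7 and P14 libraries held from 32.2 CpG per kb in Sst to 89.6 in Tfap2a, and bases under no P7 or P14 peak from 5.07 in Npy to 42.96 in Tfap2a. In Npy the densities were 38.2 and 5.07 per kb, in Gad2 53.8 and 23.3, and in Gad1 60.3 and 35.0. The same order held in 84.4% of 4526 genes tested that had bases of both kinds, with medians of 44.6 and 14.01 per kb, so it was not particular to these genes. Read at the 5′ end of each gene, Gad2 (36.3 per kb), Slc6a5 (33.8) and Tfap2a (31.3) lay above the upper quartile of the genes tested (30.3), Tfap2b (24.7) and Npy (20.8) between the quartiles, and Pvalb (14.7), Sst (13.8) and Gad1 (11.5) below the lower quartile (16). The Gad1 window that carried the peaks held 44.2 per kb, and its uncovered 5′ window 11.5.

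**Figure D4:**
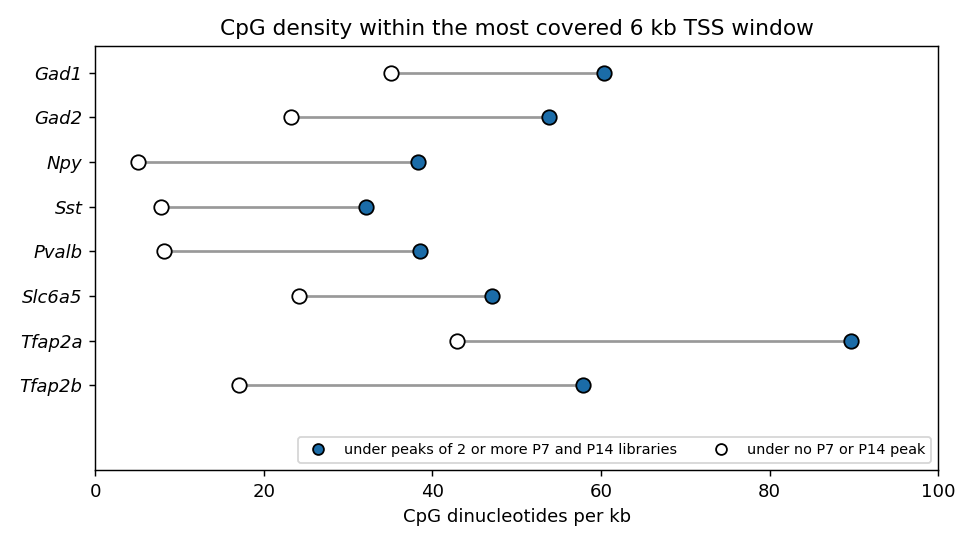
CpG dinucleotides per kb (x axis) in the most covered TSS window of each member, for bases under peaks of 2 or more P7 and P14 libraries (filled) and bases under no P7 or P14 peak (open). The filled point lies to the right of the open point in all 8 members, from 32.2 in Sst to 89.6 in Tfap2a.

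The peaks themselves differed in strength. In the members' windows 40 peaks were listed at P7, 38 at P14 and 6 at P60. At P7 the peak with the highest −log10 q was in Npy (5.26 to 9.87 over its 3 peaks), followed by Sst (4.06 to 6.88), with fold enrichment over the library's background of 2.72 to 3.05 and 3.52 to 3.82. In Gad1 the fold was 1.57 to 2.04 and −log10 q 1.30 to 2.35, so its peaks were weak. The fold was similar in Slc6a5 (1.58 to 2.11), Tfap2a (1.65 to 2.16) and Tfap2b (1.68 to 2.38), whose highest −log10 q were 4.51, 5.34 and 5.10. In Pvalb −log10 q was 1.70 to 1.71. Only Npy, Sst, Tfap2a and Tfap2b could be tested when peaks were limited to a −log10 q of 4 or more, and Npy and Sst then fell from P7 to P60, as did 26% of the 1618 genes that could be tested.

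Among the P7 means, Npy (48.1%) stood clear of the others, its lowest library (46.5%) above the highest of any other member (44.1%, Gad2). The order below it was Gad2 (29.7%), Slc6a5 (24.0%), Sst (21.6%), Tfap2b (20.5%), Gad1 (20.2%), Tfap2a (12.8%) and Pvalb (10.5%), and each neighbouring pair overlapped. At P7, 1.99% of the genes tested had a mean above that of Npy and 59.4% one above that of Pvalb. At P14 Slc6a5 (31.0%) and Npy (30.4%) overlapped at the top, followed by Gad2 (19.8%). At P60 the highest mean was that of Npy (5.89 ± 7.43%), which overlapped all others.

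Lower coverage at P60 was also found in other interneuron peptide genes, GABAergic lineage factors and AP-2 genes, and in lists of other cell types. The first of these lists hold members too, and some genes stand in more than 1 list. For GABA and glycine handling, 3 of 7 tested genes (of 10) fell from P7 to P60 and none rose. These were the members Gad2, Slc6a5 and Gad1, so no other gene of that list passed. The vesicular transporter Slc32a1, which fills vesicles with both transmitters, changed by −10.1 points (adjusted p = 0.136) and was named after its value was seen. Of 16 interneuron peptide and calcium-binding genes, 14 were tested and 6 fell, with Cck (cholecystokinin, −37.5 points, adjusted p = 0.00395) and Tac1 (tachykinin 1, −31.1, adjusted p = 0.00411) beside Npy and Sst. The medians were −14.3 and −12.0 points, against −12.0 for all genes tested.

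Of 27 transcription factors of GABAergic lineages, 25 were tested and 15 fell, with Dlx5 (−37.9 points, adjusted p = 0.013) and Sp8 (−36.4, adjusted p = 0.00076), forebrain interneuron factors, falling furthest. Their median was −21.3 points. Ptf1a, which specifies the GABAergic lineage of the cerebellum, fell by 29.9 points (adjusted p = 0.00618) and was named after its value was seen. In the AP-2 family 4 of 5 fell, Tfap2c by 34.4 points (adjusted p = 0.0197) and Tfap2e by 25.0 (adjusted p = 0.00298), with Tfap2d and Tfap2b, and a median of −20.5 points. Of the glutamatergic and granule genes 5 of 11 tested (of 19) fell, with a median of −12.9 points, Lmx1a by 44.0 (adjusted p = 0.00157) and Grin2c, an NMDA receptor subunit of mature granule neurons, by 30.8 (adjusted p = 0.00204). Of the glial genes 4 of 7 tested (of 14) fell, with a median of −21.8 points, Pdgfra by 45.1 (adjusted p = 0.00446) and Olig1 by 29.5 (adjusted p = 0.00332), both of the oligodendrocyte lineage. The share of listed genes that fell is to be read beside the 45.8% of all genes tested, and the part that granule and glial cells had in the members' values was not tested. No listed gene rose past the threshold between P7 and P60. Kit, of the peptide and calcium-binding list, was at 0 in all P7 libraries and at 4.17, 1.15 and 28.9% at P60. Its change was 11.4 points (SE 8.43, limma adjusted p = 0.279), and it was named after its value was seen. After division by the library mean, 2, 2, 4, 2, 3 and 1 genes of these 6 lists fell, in the order given, and none rose. Without the 3 libraries of narrow peaks the counts were 0, 1, 2, 0, 2 and 1.

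From P7 to P14, Pdyn, 1 of 14 tested peptide genes, and Prox1, 1 of 25 tested lineage factors, fell, beside 11.7% of all genes. From P14 to P60, Sp8 and Neurog1, 2 of 25 lineage factors, fell, beside 2.07% of all genes. Leaving out P14 replicate 2 or 3 or P60 replicate 1 or 2 left 0 lineage factors called from P14 to P60. In each of these settings 0 of all genes tested fell, so the 0 was not particular to the list. Leaving out P14 replicate 1 gave 19 of 25, beside 21.9% of all genes. From P7 to P14 the lineage list had 0 calls without P7 replicate 1 or 2 or P14 replicate 1 or 3, beside 12, 13.8, 5.56 and 11.3% of all genes. With the replicate block it had 0 in both steps, beside 4.55 and 0% of all genes. The peptide list's single call became 4 without P7 replicate 3, 2 without P7 replicate 1 or P14 replicate 3 and 0 without the 3 libraries of narrow peaks. Of all genes tested, 19.6, 12, 11.3 and 0% fell in the same order. These 4 genes were named after their calls were seen.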

How the data were processed

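H3K27me3 ChIP-seq peaks of 9 libraries (3 each at P7, P14 and P60) were analysed. Per the labels and methods, the authors trimmed reads with Trimmomatic 0.38, aligned them to mm10 with STAR 2.7.2b and called broad peaks per library with MACS2 2.1. The lowest −log10 q was 1.00 to 1.01 over the lists, weaker than the false discovery rate threshold that the methods state. Weaker than it too were the Pvalb peaks at P7 (1.70 to 1.71) and the Gad2 peak of P7 replicate 3 (1.88). So were all Gad1 peaks in P7 replicates 2 and 3 (1.30 to 1.995). No input library is named. The deposited columns are fold enrichment within a library (a ratio), −log10 p-value and −log10 q-value, and a score. They served only to rank or filter peaks. The read depth is unknown here, and no counting interval was computed. The 5 libraries of the Kdm6b experiment (2 Kdm6b-WT, 3 Kdm6b-cKO) were not analysed here, since peaks in 5 of their 5 lists ran past the ends of mm10 chromosomes, against 0 of the 9 others.

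Coverage was computed from GENCODE vM21 protein-coding TSSs on GRCm38. A library's most covered window could differ from another's. Stages were compared with limma 3.58.1 (trend, robust, all 9 libraries in 1 fit) over the 5120 genes covered by 1 bp or more in 2 or more libraries, with Benjamini-Hochberg adjustment over all of them and a threshold of 0.05. The 3 comparisons share libraries. The fit was tested on simulated data. The labels call the libraries replicates, and p-values measure the spread between them. That spread was pooled over the 3 stages for each gene. For Gad1, Gad2, Slc6a5 and Tfap2b, at 0 in all P60 libraries, the P60 stage adds no spread and lowers the pooled value. Tfap2b had an SD of 15.7 points at P7 and 0 at P60. Blocks covered in 5 or more of the 6 younger libraries and motifs were described without a test. Genes outside the 8 were named as the 2 with the furthest falls in each of 6 fixed lists, and the 2 most alike in coverage per member. Members and lists were chosen with earlier results of these data known. Alternatives were peaks of −log10 q of 4 or more or 300 bp or more, 6905 peaks per list, windows of 1 kb, the 5′ end alone, log2(coverage + 1), division by library mean (brought to a common mean), a replicate block and leaving out libraries. Python 3.11.15, numpy 2.4.6 and R 4.3.3 were used. Promoter sequences are RefSeq's, on GRCm38.p6.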

Additional observations from a re-analysis of the deposited data

How the results depend on the processing

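The P7 to P60 count of 6 lower members was 6, 4, 5, 5 and 7 with peaks of 300 bp or more, 6905 peaks per list, 1 kb windows, the 5′ end alone (7 members tested) and log2(coverage + 1), and 2 with peaks of −log10 q of 4 or more (4 members tested) and 2 with coverage divided by the library mean. Of all genes tested, 55.4, 46.2, 46.6, 47.3, 47, 26 and 21.7% fell in the same order. The members' count ranged from 3 to 6 when 1 library was left out, and was 1 without P14 replicate 1, P60 replicate 1 and P60 replicate 2, a choice made after seeing the data, as was the filter at 1 or more libraries, which gave 6. The shares of all genes tested were 31.4 to 54.8%, 8.08% and 31.8%. For P14 to P60, with 0, the count was 2 with peaks of 300 bp or more, 2 with 1 kb windows, 2 with the 5′ end alone, 4 with log2(coverage + 1), 2 with coverage divided by the library mean and 0 to 4 with 1 library left out. Of all genes tested, 6.44, 11.8, 4.65, 18.6, 8.57 and 0 to 21.9% fell in the same order. For P7 to P14, with 0, the members' count was 1 (Sst) at a −log10 q of at least 4, beside 5.62% of all genes tested. The cause was not tested.

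With the replicate number as a block the members' counts were 0, 0 and 6 in the order P7 to P14, P14 to P60 and P7 to P60, and 233, 0 and 2044 of all genes tested were lower, against 597, 106 and 2347 without it. Deviations of same-numbered libraries correlated at −0.216 to 0.249, over 0.1 in 2 of 9 pairs. Those of other-numbered libraries correlated at −0.265 to 0.214, over 0.1 in 5 of 18. The values gave no sign of pairing by number, and the labels do not say whether equal numbers share a batch.

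Several P7 to P14 changes turned sign, none past the threshold. Tfap2b was 4.41 at a −log10 q of at least 4, 1.59 with 6905 peaks per list, 1.35 with 1 kb windows and 7.24 points divided by the library mean, and −10.9 to 3.62 with 1 library left out. Tfap2a was −0.43 with peaks of 300 bp or more, −2.13 with 6905 peaks, −10.6 with 1 kb windows, −0.39 on the log2 scale and −3.48 to 5.74 with 1 library left out (−2.06, −1.93 and −0.622 among them). Pvalb was 6.77 with 6905 peaks, 1.73 divided by the library mean, −6.54 to 4.41 with 1 library left out, 3.62 without the 3 libraries of narrow peaks, and 2.15 in P7 to P60 with 6905 peaks. Divided by the library mean, Gad2 was 5.43 and Npy 5.70.

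Over all 5120 genes tested, P7 to P14 gave 597 lower and 18 higher, P14 to P60 106 and 0, and P7 to P60 2347 and 31. Lower counts beyond 1.5 times these were, for P14 to P60, 0 with −log10 q of 4 or more, 277 with 300 bp or more, 45 with 6905 peaks, 500 with 1 kb windows, 204 with the 5′ end alone, 953 on the log2 scale, 439 divided by the library mean, 12 with genes covered in 1 or more libraries and 0 to 1107 with 1 library left out. They were 91 (−log10 q of 4 or more), 363 (library mean) and 175 to 978 (1 library left out) for P7 to P14, and 421 (−log10 q of 4 or more) and 1111 (library mean) for P7 to P60. Without the 3 libraries of narrow peaks they were 0, 0 and 387 in order of comparison, and the members' counts 0, 0 and 1. Higher counts moved between 0 and 80 for P7 to P14, 0 and 100 for P14 to P60 and 7 and 280 for P7 to P60. Genes tested numbered from 1618 with −log10 q of 4 or more to 6719 with genes covered in 1 or more libraries. The planned fit with no filter on coverage could not be fitted, since most variances were 0. No alternative was run for the Kdm6b lists. Unknown read depth limits every value of 0.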

Other observations

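The genes whose coverage was most like that of a member over the 9 libraries, by mean absolute difference, were Slc6a4 (2.29 points) and Foxe3 (3.40) for Npy, Sowahd (1.58) and Nr4a2 (1.72) for Gad2, Abcc3 (1.33) and Nhsl2 (1.51) for Gad1, Shb (1.56) and Lhx4 (2.698) for Slc6a5, and Sema6c (2.38) and Alox8 (2.42) for Sst. For Pvalb they were Spats2l (1.36) and Smco4 (1.40), for Tfap2a Dzip1 (1.62) and Mbnl3 (1.63), and for Tfap2b Hoxc11 (1.69) and Neu2 (1.83).

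A region about 32 kb upstream of Gad2, at chr2:22587298-22590185 inside Myo3a, was named after its values were seen. It held 0, 2037 and 2498 bp under peaks in P7 replicates 1, 2 and 3, 1429, 2539 and 2326 bp at P14 and 2483, 2390 and 1984 bp at P60. The region was drawn as the span of peaks listed there at P60, so its P60 coverage was fixed by that choice. No P60 library had a peak at Gad2 itself.

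Over each gene and 10 kb to either side, mean covered length was lower at P60 than at P7 for all 8 members, a difference that was not tested. At Tfap2b it was 6251, 1622 and 564 bp at P7, 1022, 3379 and 1906 bp at P14 and 0 in all P60 libraries. At Tfap2a it was 4507, 2191 and 1769 bp at P7, 347, 4048 and 3791 bp at P14 and 173, 0 and 0 bp at P60. The P7 and P14 libraries overlapped at both genes. At Sst, P60 replicate 3 listed 644 bp outside the gene and outside its TSS window, where the window itself was at 0.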
